A study of Mus musculus with 16 samples.

Results

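Cytotoxic lymphocytes kill by releasing granules that hold a pore-forming protein and granzymes, serine proteases that enter the target cell through the pore. Natural killer (NK) cells and cytotoxic T cells share this machinery, and NK cells decide on release through activating and inhibitory surface receptors. Both cell types also secrete interferon-γ, which activates macrophages and antigen presentation. In lupus nephritis such cells can enter the kidney, where immune complexes are deposited. The 9 genes described here are the granule genes Gzma, Gzmb, Gzmk, Prf1 and Nkg7, the receptor genes Klrk1, Klrb1c and Ncr1, and the cytokine gene Ifng. They were named by gene and found as 11 probes whose transcript accession belongs to them, of 56605 probes for 22911 named genes.

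Whole kidneys of 16 mice aged 6 months were measured on one-colour Agilent arrays, 1 mouse per array, with 4 mice in each of 4 genotypes. The genotypes were wild type (WT), Fcgr2b-/-, which lack the inhibitory Fcγ receptor IIb and are the lupus mice of the study, Sting gt/gt, which carry the goldenticket allele of the DNA-sensing adaptor STING on both chromosomes, and the double-deficient Fcgr2b-/- Sting gt/gt. The labels give the strain as C57BL/6 for WT and Sting gt/gt and as 129/C57BL/6 for both Fcgr2b-deficient genotypes, so Fcgr2b genotype and strain background cannot be told apart. The labels call the lupus mice Fcgr2b-ko with no Sting allele, whereas the study's own heading for its kidney expression profiles gives Sting wt/gt. WT mice were purchased. The paper gives the Fcgr2b-deficient line as coming from Bolland and the Sting-deficient line as coming from Paludan. The study crossed them to obtain double-deficient mice and littermate controls. Each value is the log2 processed signal minus the 75th percentile of its array, and a probe is called detected where the scanner software marks it well above background. Between 28441 and 35565 probes were detected per array, and 35628 probes detected on at least 4 of 16 arrays were tested. The arrays lay on 2 slides, with WT mice at 2 and 2, Fcgr2b-/- at 3 and 1, Fcgr2b-/- Sting gt/gt at 1 and 3, and Sting gt/gt at 2 and 2 on slides 1 and 2.

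The genes altered in these mice were looked at before the members. The brighter of the 2 Fcgr2b probes had a mean log2 signal of 1.16 ± 0.44 in WT, -0.28 ± 0.34 in Fcgr2b-/-, -0.58 ± 0.41 in Fcgr2b-/- Sting gt/gt and 0.26 ± 0.70 in Sting gt/gt (SD, n = 4). It was detected on all 16 arrays, and the values of the Sting gt/gt mice overlapped those of the Fcgr2b-deficient mice, so the label could not be read from each array. The difference of Fcgr2b-/- minus WT was -1.44 (95% interval -2.18 to -0.70, limma adjusted p = 0.416) and was not called. Where the probes lie relative to the deleted part was not mapped. Goldenticket is a point mutation, so the level of the Sting1 transcript does not check that label.

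The arrays stood apart from each other before any genotype was compared. The 7 members detected on at least 4 arrays were each standardised over the 16 kidneys and averaged. This mean was above 0 in 5 kidneys, Fcgr2b-/- mouse 1 at 1.57, WT mouse 1 at 1.18, Fcgr2b-/- Sting gt/gt mouse 2 at 0.85, Sting gt/gt mouse 1 at 0.85 and Fcgr2b-/- mouse 4 at 0.83. In the other 11 kidneys it lay between -0.75 and -0.09. Each genotype thus held at least 1 of the high kidneys, and 4 of the 8 arrays on slide 1 against 1 of the 8 on slide 2 were among them. In bulk kidney RNA, more cells of a type and more RNA per cell cannot be told apart. The paper reports that the kidneys had not been perfused. For its own interferon genes, the paper could not say whether the signal came from blood or from kidney. Whether the signal of the members came from cells in the blood or from cells in the tissue was not tested.

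Gzma encodes granzyme A, a tryptase of cytotoxic granules, and was detected on all 16 arrays. Its log2 signal was -0.11, -2.31, -2.54 and -1.98 in WT mice 1 to 4 and 0.73, -1.83, -1.71 and -0.42 in Fcgr2b-/- mice 1 to 4. It was -1.64, -1.13, -0.64 and -2.13 in the Fcgr2b-/- Sting gt/gt mice and -0.48, -2.26, -2.20 and -3.54 in the Sting gt/gt mice. Highest were Fcgr2b-/- mouse 1, WT mouse 1, Fcgr2b-/- mouse 4 and Sting gt/gt mouse 1, with Fcgr2b-/- Sting gt/gt mouse 3 close below, and all 4 genotypes overlapped. The mean difference of Fcgr2b-/- minus WT was 0.92 (95% interval -0.56 to 2.41), and that of Fcgr2b-/- Sting gt/gt minus Fcgr2b-/- was -0.58 (-2.06 to 0.91). Leaving out single mice moved the first from 0.41 (without Fcgr2b-/- mouse 1) to 1.47 (without WT mouse 1), and the second from -0.92 (without Fcgr2b-/- mouse 2) to -0.06 (without Fcgr2b-/- mouse 1). With slide as a block the second was -0.12.

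Gzmb encodes granzyme B, which cleaves caspases in the target cell. It was detected in 7 kidneys, 1 of 4 WT, 2 of 4 Fcgr2b-/-, 3 of 4 Fcgr2b-/- Sting gt/gt and 1 of 4 Sting gt/gt. The log2 signal was -4.57, -5.57, -5.97 and -5.61 in WT, -2.76, -5.33, -5.52 and -3.36 in Fcgr2b-/-, -5.19, -5.03, -4.83 and -5.24 in Fcgr2b-/- Sting gt/gt, and -4.36, -5.97, -6.71 and -7.17 in Sting gt/gt. Fcgr2b-/- mice 1 and 4 had the highest values of the 16, while the other 2 Fcgr2b-/- mice lay among the WT values. The difference of Fcgr2b-/- minus WT was 1.19 (95% interval -0.17 to 2.54), and that of Fcgr2b-/- Sting gt/gt minus Fcgr2b-/- was -0.83 (-2.18 to 0.53). For the first, 3 of 4 WT and 2 of 4 Fcgr2b-/- values were not well above background, and with such values raised to the dimmest detected probe of their array it was 0.78 with WT raised and 0.97 with both genotypes raised, under 2-fold either way. The second was -1.02 with both raised. With normexp background correction these were 0.43 and -0.42, and with slide as a block the second was -0.31. Without Fcgr2b-/- mouse 1 they were 0.70 and -0.34, and without Fcgr2b-/- mouse 3 they were 1.61 and -1.25.

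Gzmk encodes granzyme K, another tryptase. It was detected in 2 kidneys only, Fcgr2b-/- mouse 1 at -2.63 and Fcgr2b-/- mouse 4 at -4.27, and in 0 of 4 kidneys of each other genotype, so it was below the detection filter and was not tested. In the processed signals, with the values of the dimmer genotype raised to the dimmest detected probe of each array, the Fcgr2b-/- mean of -5.24 was at least 1.04-fold higher than WT and at least 1.15-fold higher than Fcgr2b-/- Sting gt/gt. The Fcgr2b-/- mean includes 2 kidneys that were themselves not well above background. Against Sting gt/gt the bound was 1.006-fold. Fcgr2b-/- mice 2 and 3 had -6.53 and -7.53, so these bounds above 1 rest on both Fcgr2b-/- mouse 1 and Fcgr2b-/- mouse 4.

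Prf1 encodes perforin, the pore-forming protein. It was detected on all 16 arrays within a range of 0.83, from -1.85 to -1.01, the narrowest of the members. The means were -1.37 ± 0.22 in WT, -1.51 ± 0.27 in Fcgr2b-/-, -1.45 ± 0.31 in Fcgr2b-/- Sting gt/gt and -1.45 ± 0.28 in Sting gt/gt (SD, n = 4). The 4 kidneys highest for Gzma were not among the 4 highest for the Prf1 probe, and Fcgr2b-/- mouse 1 had -1.51, whereas Fcgr2b-/- Sting gt/gt mouse 2, high by the mean of the members, had the highest value, -1.01. Fcgr2b-/- minus WT gave a difference of -0.13 (95% interval -0.63 to 0.36), or -0.30 with scaling by the array median, -0.26 without Fcgr2b-/- mouse 2 and -0.07 without Fcgr2b-/- mouse 4.

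Nkg7 encodes a granule membrane protein of NK and T cells. Its log2 signal was -0.21, -2.67, -2.14 and -2.21 in WT, 0.99, -2.21, -2.61 and 0.11 in Fcgr2b-/-, -2.25, -0.85, -1.87 and -2.77 in Fcgr2b-/- Sting gt/gt, and -0.33, -1.72, -1.58 and -2.36 in Sting gt/gt. WT mouse 1, Fcgr2b-/- mice 1 and 4, Fcgr2b-/- Sting gt/gt mouse 2 and Sting gt/gt mouse 1 were the high kidneys, and the genotypes overlapped. The difference of Fcgr2b-/- minus WT was 0.87 (-0.75 to 2.50), and that of Fcgr2b-/- Sting gt/gt minus Fcgr2b-/- was -1.004 (-2.63 to 0.62). Without Fcgr2b-/- mouse 1 these were 0.24 and -0.36, and without Fcgr2b-/- mouse 3 they were 1.44 and -1.56. With slide as a block the second was -0.57.

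**Figure D1:**
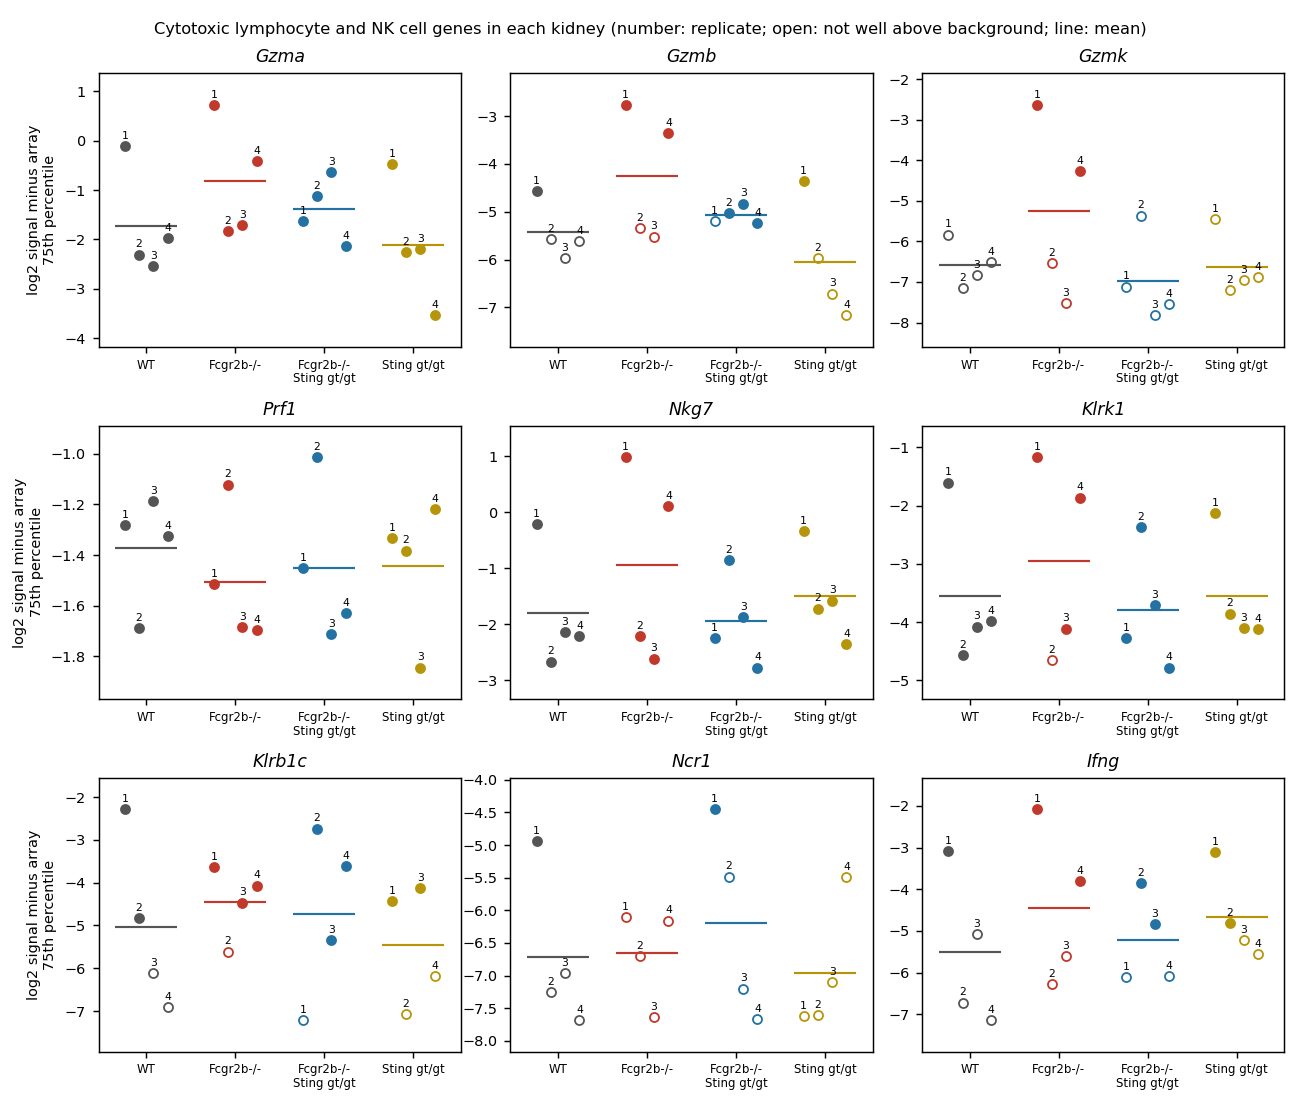
Log2 signal minus the 75th percentile of the array for the 9 genes in each of 16 kidneys, 4 per genotype on the horizontal axis, with replicate numbers, open points for values not well above background and lines for group means. WT mouse 1, Fcgr2b-/- mice 1 and 4 and Sting gt/gt mouse 1 have the 4 highest values for Gzma and for Nkg7, and Prf1 spans 0.83 in all.

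Klrk1 encodes NKG2D, an activating receptor for stress-induced ligands. It was detected in 15 kidneys, with -1.61, -4.56, -4.08 and -3.98 in WT, -1.17, -4.66, -4.11 and -1.86 in Fcgr2b-/-, -4.28, -2.37, -3.71 and -4.78 in Fcgr2b-/- Sting gt/gt, and -2.13, -3.85, -4.11 and -4.12 in Sting gt/gt. The high kidneys were 1 in each genotype and a second in Fcgr2b-/-. Fcgr2b-/- minus WT gave a difference of 0.61 (-1.15 to 2.36), and Fcgr2b-/- Sting gt/gt minus Fcgr2b-/- gave -0.84 (-2.59 to 0.92). The first was 0.01 without Fcgr2b-/- mouse 1, 1.26 without WT mouse 1 and 0.36 with normexp. The second was -0.24 without Fcgr2b-/- mouse 1, -1.41 without Fcgr2b-/- mouse 2 and -0.45 with slide as a block.

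Klrb1c encodes NK1.1, a surface marker of NK cells in C57BL/6 mice. The brightest of its 3 probes was detected in 10 kidneys, with -2.29, -4.82, -6.12 and -6.90 in WT, -3.63, -5.61, -4.46 and -4.07 in Fcgr2b-/-, -7.21, -2.74, -5.34 and -3.62 in Fcgr2b-/- Sting gt/gt, and -4.44, -7.08, -4.13 and -6.17 in Sting gt/gt. Its highest values were in WT mouse 1 and Fcgr2b-/- Sting gt/gt mouse 2, not in Fcgr2b-/- mouse 1. Of the other probes, one was detected in 11 kidneys between -6.79 and -3.37 over all arrays and one in 2 kidneys between -7.50 and -4.75, and both were highest in the same 2 mice. The difference of Fcgr2b-/- minus WT was 0.59 (-1.62 to 2.81) for the brightest probe and 0.35 (-1.14 to 1.85) for the other tested probe. For Fcgr2b-/- Sting gt/gt minus Fcgr2b-/- the brightest probe gave -0.28 (-2.50 to 1.93) and the other tested probe 0.10 (-1.39 to 1.59). For the brightest probe the first comparison gave -0.03 without WT mouse 4, 1.51 without WT mouse 1, -0.00052 with normexp, 0.35 with quantile normalization, 0.38 in the table of the authors, -0.07 with the 2 WT values that were not well above background raised as for Gzmb and 0.20 with both genotypes raised. The second gave -0.95 without Fcgr2b-/- Sting gt/gt mouse 2, 0.54 without mouse 1 of that genotype, -0.03 with normexp, 0.22 with the dimmer genotype raised and -0.04 with both raised.

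Ncr1 encodes NKp46, an activating receptor largely restricted to NK and innate lymphoid cells. It was detected in 1 of 4 WT kidneys, mouse 1 at -4.94, in 1 of 4 Fcgr2b-/- Sting gt/gt kidneys, mouse 1 at -4.45, and in 0 of 4 of the other genotypes. It was not tested, and no bound above 1 could be given for any pair of genotypes.

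Ifng encodes interferon-γ. It was detected in 7 kidneys, with -3.09, -6.72, -5.08 and -7.13 in WT, -2.09, -6.28, -5.60 and -3.80 in Fcgr2b-/-, -6.11, -3.86, -4.83 and -6.08 in Fcgr2b-/- Sting gt/gt, and -3.11, -4.81, -5.22 and -5.55 in Sting gt/gt. Detection was in 1 of 4 WT and in 2 of 4 mice of each other genotype. WT mouse 1, Fcgr2b-/- mouse 1 and Sting gt/gt mouse 1 had the highest values, and the genotypes overlapped. The difference of Fcgr2b-/- minus WT was 1.06 (-1.01 to 3.13), and that of Fcgr2b-/- Sting gt/gt minus Fcgr2b-/- was -0.78 (-2.85 to 1.29). Leaving out single mice moved the first from 0.28 (without Fcgr2b-/- mouse 1) to 1.87 (without WT mouse 1), and the second from -1.39 (without Fcgr2b-/- mouse 2) to 0.0064 (without Fcgr2b-/- mouse 1). With normexp they were 0.39 and -0.50, and with slide as a block the second was -0.37. Raising the dimmer genotype as for Gzmb gave 0.21 and -0.41, and raising both gave 0.66 and -0.86.

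The 250 bases before the transcription start are shown for Gzmb, Nkg7 and Prf1 as examples (RefSeq, GRCm38.p6, 5′ to 3′ on the strand of the gene). Promoters of all 9 members were in the table. Capitals mark matches on either strand to the RUNX motif TGTGGT, the T-box motif GTGTGA, the AP-1 motif TGANTCA and the CRE motif TGACGTCA. Gzmb lies at chr14:56262335-56262584 on the minus strand, Nkg7 at chr7:43436888-43437137 on the plus strand and Prf1 at chr10:61297586-61297835 on the plus strand.
Gzmb: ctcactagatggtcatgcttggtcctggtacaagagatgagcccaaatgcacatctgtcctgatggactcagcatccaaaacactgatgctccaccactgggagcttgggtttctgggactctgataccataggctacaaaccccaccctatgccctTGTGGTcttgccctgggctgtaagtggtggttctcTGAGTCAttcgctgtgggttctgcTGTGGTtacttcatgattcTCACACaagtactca
Nkg7: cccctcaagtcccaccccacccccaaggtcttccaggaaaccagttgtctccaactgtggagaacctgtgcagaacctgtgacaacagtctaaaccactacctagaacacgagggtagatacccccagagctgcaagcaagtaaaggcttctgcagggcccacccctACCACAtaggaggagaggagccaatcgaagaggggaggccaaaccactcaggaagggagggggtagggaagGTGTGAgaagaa
Prf1: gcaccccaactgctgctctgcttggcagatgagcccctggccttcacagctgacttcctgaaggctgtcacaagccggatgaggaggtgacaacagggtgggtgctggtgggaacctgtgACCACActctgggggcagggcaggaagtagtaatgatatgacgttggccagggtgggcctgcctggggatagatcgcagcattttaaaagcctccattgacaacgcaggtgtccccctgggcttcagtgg
The Gzmb window held 2 RUNX matches, 1 T-box match and 1 AP-1 match, the Nkg7 window 1 RUNX and 1 T-box match, and the Prf1 window 1 RUNX match. Over all 9 members, 7 held the RUNX letters, against 14.0% of 32851 promoter windows of the same length. The T-box letters were in 4 members, Gzmb, Gzmk, Nkg7 and Ncr1 (12.3% of all windows). The AP-1 letters were in 1 member (6.75%) and the CRE letters in 0 (1.55%). Gzma, Klrk1, Klrb1c and Ifng lacked the T-box letters as Prf1 did, and Gzmk and Ifng lacked the RUNX letters. Correlation with the mean of the other tested members was 0.95 for Klrk1, 0.88 for Ifng, 0.84 for Gzma, 0.55 for Klrb1c and -0.0087 for Prf1. It was 0.92 for Nkg7 and 0.75 for Gzmb, which held the T-box letters. A match is a description of the letters and not of a bound site.

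Fcgr2b-/- was compared with WT to ask how the kidney transcripts of lupus mice differ. Of the 7 members tested by limma with Benjamini-Hochberg adjustment, 0 were called at an adjusted p under 0.05 and 2-fold, against 0.0449% (16) of all probes. At an unadjusted p under 0.05 there were 0 of 7, against 3.30% of all probes. The mean was higher in Fcgr2b-/- for 6 of 7 members, all but Prf1, with a median log2 difference of 0.87, beside a median of -0.04 over all tested probes. The median was 0.28 without Fcgr2b-/- mouse 1, 0.53 without Fcgr2b-/- mouse 4, 0.52 without WT mouse 4, 1.47 without WT mouse 1 and 0.39 with normexp, which left 5 of 7 above 0. The fitted means of Gzmb and Ifng, 2 of 7, were at least 2-fold higher, as were those of 4.43% of all probes, and 0 were at least 2-fold lower (0.752% of all probes). In WT both rest on 3 values that were not well above background, and with these raised, alone or with those of Fcgr2b-/-, the count of 2 was 0. It was also 0 with normexp, with slide as a block and without Fcgr2b-/- mouse 1 or 4. The count was 1 with quantile normalization, with scaling by the array median, in the table of the authors and without WT mouse 2 or 4, and 5, 4 and 6 without Fcgr2b-/- mouse 2, Fcgr2b-/- mouse 3 and WT mouse 1. The groups did not overlap for 0 of 7 members, against 1.19% of all probes. Within slide 1 the difference was 0.70 for Gzma, 1.25 for Gzmb, 1.07 for Nkg7, 0.52 for Klrk1, -0.88 for Klrb1c, 0.85 for Ifng and 0.04 for Prf1. Within slide 2, which held 1 Fcgr2b-/- mouse, it was 0.54, 0.27, -0.44, -0.08, 2.05, 0.50 and -0.43 in the same order. Nkg7, Klrk1, Klrb1c and Prf1 thus differed in sign between the slides. Gzmb and Ifng passed the detection filter with 7 kidneys each, and Gzmk and Ncr1 did not pass, so these counts are not over all 9 genes. Scaling by the array median moved the median of all probes to -0.21, so small differences depend on the scaling.

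Fcgr2b-/- Sting gt/gt was compared with Fcgr2b-/- to ask what loss of STING changes in lupus mice. Of 7 members 0 were called (0% of all probes) and 0 had an unadjusted p under 0.05 (1.75% of all probes) by limma. The mean was lower in the double-deficient mice for 6 of 7 members, with a median log2 difference of -0.78 beside 0.05 over all tested probes. The median was -0.06 without Fcgr2b-/- mouse 1, -0.48 without Fcgr2b-/- mouse 4, -1.19 without Fcgr2b-/- mouse 2, -0.49 and -0.51 without Fcgr2b-/- Sting gt/gt mice 1 and 4, -0.50 with normexp and -0.31 with slide as a block. Nkg7, 1 of 7, was at least 2-fold lower, as were 2.72% of all probes, and 0 were at least 2-fold higher (0.752%). The count of 1 was 0 in the table of the authors, with scaling by the array median, with normexp, with the percentile over probes, with slide as a block and without Fcgr2b-/- mouse 1 or 4 or Fcgr2b-/- Sting gt/gt mouse 1 or 4. It was 2 with both genotypes raised as for Gzmb, where the median was -0.86, 4 without Fcgr2b-/- mouse 2 or 3 and 3 without Fcgr2b-/- Sting gt/gt mouse 2. The groups did not overlap for 0 of 7 members, against 1.02% of all probes. Within slide 1, which held 1 double-deficient mouse, the difference was -1.13 for Gzma, -1.38 for Gzmb, -1.88 for Nkg7 and -2.06 for Ifng. Within slide 2 it was 0.41, 0.49, 0.78 and 0.68 in the same order, and 0 of 7 members were above 0 within slide 1 against 7 of 7 within slide 2. This comparison and the last share the Fcgr2b-/- mice, whose mice 1 and 4 were the 2 high kidneys.

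The remaining comparisons also called 0 members. Sting gt/gt minus WT called 0 of 7 (0% of all probes), with 0 of 7 at an unadjusted p under 0.05 (3.73%) and a median difference of -0.07. That median was not recomputed with mice left out. Its sign rests on single mice, among them WT mouse 1, a high kidney, and Sting gt/gt mice 2 and 4. Fcgr2b-/- Sting gt/gt minus WT called 0 of 7 (0%), with 0 of 7 unadjusted (0.418%) and a median of 0.28. This median was also not recomputed with mice left out. Its sign rests on single mice, among them Fcgr2b-/- Sting gt/gt mouse 2, a high kidney, and WT mouse 4. Fcgr2b-/- Sting gt/gt minus Sting gt/gt called 0 of 7 (0%), with 0 of 7 unadjusted (3.07%). The interaction, which asks whether the difference made by Sting gt/gt depends on Fcgr2b, called 0 of 7 (0%), with 0 of 7 unadjusted (6.23%). Its values ran from -1.61 for Ifng, with a standard error of 1.38, to 0.14 for Klrb1c. With 4 mice per genotype and such a spread within genotypes, differences of the sizes seen were not told from 0, which does not show that the genotypes were alike.

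**Figure D2:**
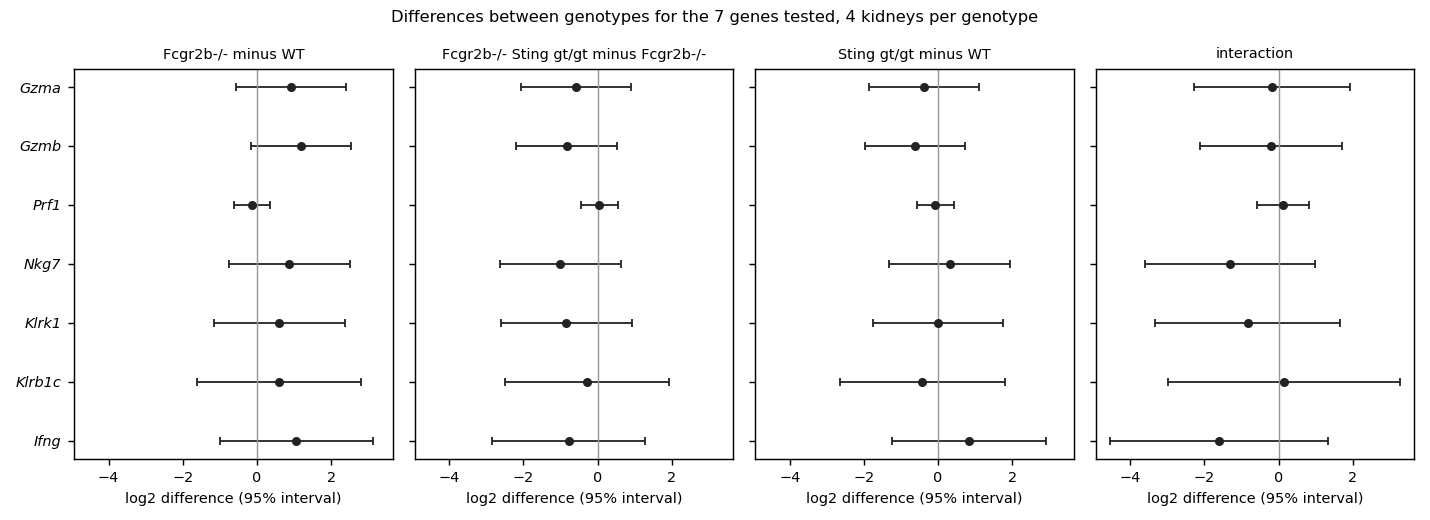
Log2 difference (horizontal axis) with its 95% interval from limma for the 7 genes tested, in 4 comparisons of genotypes with 4 kidneys each. All intervals cross 0, and that of Prf1 is the narrowest, from -0.63 to 0.36 for Fcgr2b-/- minus WT.

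Most of the variation lay within genotypes. The share of the sum of squares over the 16 kidneys that lay within genotypes was 62.8% for Gzmb, 79.0% for Gzma, 87.6% for Nkg7, 90.7% for Ifng, 92.8% for Klrk1, 93.4% for Klrb1c and 96.0% for Prf1. Pearson correlations over the 16 kidneys, given as a description of arrays that share tissue and batch, were 0.97 between Nkg7 and Klrk1, 0.92 between Gzma and Gzmb and 0.92 between Klrk1 and Ifng. Over the 8 arrays of slide 1 these were 0.98, 0.92 and 0.97, and over the 8 of slide 2 they were 0.88, 0.87 and 0.69. Between Gzmb and Nkg7 the correlation was 0.77 over all kidneys, 0.90 on slide 1 and 0.15 on slide 2. Klrb1c followed the others less closely, with 0.58 to Klrk1 and 0.53 to Nkg7. Prf1 had correlations between -0.11 and 0.13 with the other 6 members over all kidneys. On slide 1 it had -0.32 with Gzmb, and on slide 2 it had 0.55 with Klrk1 and 0.33 with Nkg7.

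The 10 named genes most like the mean of the members over the 16 kidneys were Rnase6 (r = 0.98), AW112010, Phf11b, Fasl, Dock11, Scimp, Gpr65, Phf11a, Phf11d and BC028528 (r = 0.96). Fasl encodes the death ligand of cytotoxic lymphocytes, and Gpr65 a proton-sensing receptor of leukocytes. Rnase6 was -1.39 in WT mouse 1, -0.79 in Fcgr2b-/- mouse 1, -1.60 in Fcgr2b-/- Sting gt/gt mouse 2 and -1.45 in Sting gt/gt mouse 1, and between -4.14 and -3.17 in all others but Fcgr2b-/- mouse 4, at -2.01. For Rnase6 the correlation was 0.98 on slide 1 and 0.96 on slide 2. The likeness was widespread, since 1104 of 16375 named genes had r above 0.8 with the mean of the members.

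The other genes of cytotoxic granules were read from lists. Of 7 further granzyme genes, 6 were below the detection filter, 4 of them detected on no array, and Gzmm differed by 0.11 between Fcgr2b-/- and WT, or by -0.06 with scaling by the array median, -0.04 with quantile normalization and -0.03 in the table of the authors. All 12 granule exocytosis and death ligand genes were tested and 0 were called for Fcgr2b-/- minus WT. The mean was higher in Fcgr2b-/- for 9 of 12, with a median of 0.49, or 0.32 with scaling by the array median. Stx11, a syntaxin of granule fusion, differed by 1.77 (95% interval 0.37 to 3.18), and Unc13d, which primes granules for fusion, by 1.27 (0.18 to 2.36). Fasl, detected in 1 of 4 WT and 2 of 4 Fcgr2b-/- kidneys, differed by 1.34 (-0.64 to 3.32), or by -0.18 with WT raised as for Gzmb and 0.63 with both raised.

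Of 28 other NK receptor genes, 26 had a probe, 14 were tested and 5 were detected on no array. For Fcgr2b-/- minus WT 0 of 14 were called, 14 of 14 had a positive difference and the median was 1.15, or 0.31 with normexp and 0.58 with both genotypes raised as for Gzmb, beside 44.9% positive over all tested probes. Without Fcgr2b-/- mouse 1 there were 11 of 14 positive with a median of 0.51, without WT mouse 1 there were 14 with a median of 1.81, and the list mean had a correlation of 0.91 with the mean of the members. Klrb1b, an inhibitory receptor of the same family as Klrb1c, was -0.43 and -1.65 in Fcgr2b-/- mice 1 and 4, -3.31 in WT mouse 1, -3.21 in Fcgr2b-/- Sting gt/gt mouse 2 and -4.59 in Sting gt/gt mouse 1, and was not well above background in the other 11. Its difference of 2.22 had an interval from -0.62 to 5.07 and was 1.11 with WT raised and 1.66 with both raised. Klra2 differed by 1.83 (-0.35 to 4.01) with 3 of 4 WT kidneys detected. It was 0.48 and -0.53 in Fcgr2b-/- mice 1 and 4, and -3.97 and -4.12 in mice 2 and 3, so single mice weigh on this value. Klrb1a, detected in 1 of 4 WT and 2 of 4 Fcgr2b-/- kidneys, differed by 1.64 (-0.71 to 3.99), or by 0.63 with WT raised and 1.17 with both raised. Its values were -1.21 and -2.90 in Fcgr2b-/- mice 1 and 4, and -5.94 and -6.32 in mice 2 and 3. NKG2D ligands could not be compared, since 4 of 8 had a probe and 0 passed the filter.

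The receptor adaptors link activating NK receptors to kinases. For Fcgr2b-/- minus WT 0 of 6 tested were called, 6 of 6 were positive, and the median was 1.68, or 0.86 with normexp. Fcer1g, the Fc receptor γ chain, was 2.84, 0.49, 0.78 and 1.07 in WT and 5.15, 2.67, 2.23 and 4.92 in Fcgr2b-/-, a difference of 2.45 (0.98 to 3.91, limma adjusted p = 0.707). Tyrobp, which encodes DAP12, differed by 2.18 (0.51 to 3.86) and Sh2d1b1, detected in 1 of 4 WT and 3 of 4 Fcgr2b-/- kidneys, by 2.23 (0.51 to 3.96), or by 1.66 with WT raised and 1.77 with both raised. Both Fcer1g and Tyrobp are also expressed in macrophages.

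Effector chemokine and homing genes held the only gene of the lists that was called. S1pr5 encodes a sphingosine 1-phosphate receptor that guides NK cells out of lymph nodes and bone marrow. It was -5.62, -7.17, -6.79 and -7.10 in WT, not well above background in any, -2.14, -4.01, -4.07 and -3.06 in Fcgr2b-/-, -4.72, -4.43, -4.01 and -4.74 in Fcgr2b-/- Sting gt/gt, and -4.72, -6.42, -7.03 and -6.37 in Sting gt/gt, where mouse 1 was detected. All 4 mice of both Fcgr2b-deficient genotypes were detected, and the Fcgr2b-/- values lay above all WT values. In the processed signals the Fcgr2b-/- mean was at least 3.89-fold higher than WT, and the fitted log2 difference of 3.35 (95% interval 2.25 to 4.45), which rests on WT values that were not well above background, had a limma adjusted p of 0.0349. Within slides 1 and 2 the difference was 3.32 and 2.88. The call was lost under 15 of 31 alternatives, with adjusted p between 0.00472 and 0.762, among them the fit on those 2 genotypes alone (0.475), the table of the authors (0.0980), and normexp (0.762), under which the log2 difference was 0.90. The difference was 3.31 in the table of the authors, was not altered by fitting only those 2 genotypes, and stayed between 2.96 and 3.70 with single mice left out. Leaving out single mice lost it for 11 of 16. The adjusted p was 0.183, 0.185 and 0.136 without WT mice 2, 3 and 4, and 0.122 and 0.164 without Fcgr2b-/- mice 1 and 4. It was 0.0663, 0.0713, 0.0593 and 0.0636 without Fcgr2b-/- Sting gt/gt mice 1 to 4, and 0.0643 and 0.0550 without Sting gt/gt mice 2 and 4. Over all 16 mice left out in turn it ran from 0.0133 to 0.185. S1pr5 was detected in 9 kidneys, 8 of them of the Fcgr2b-deficient genotypes, so it passed the detection filter through the genotypes where it was high.

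In the same list 8 of 9 genes had a positive Fcgr2b-/- minus WT difference, the median was 2.14, and 6 of 9 had an unadjusted p under 0.05, beside 3.30% of all probes. Ccl3, a chemokine of activated NK cells, T cells and macrophages, was -3.76, -6.04, -5.03 and -4.80 in WT and -0.59, -2.51, -2.79 and -0.21 in Fcgr2b-/-. WT mice 2 and 3 were not well above background. The difference was 3.38 (1.87 to 4.90, limma adjusted p = 0.229), or 3.10 with these 2 values raised as for Gzmb. Ccl4 differed by 3.24 (1.66 to 4.83, limma adjusted p = 0.363). For Fcgr2b-/- Sting gt/gt minus Fcgr2b-/- the differences were -1.61 for Ccl3, -1.87 for Ccl4 and -1.16 for S1pr5, 0 of 9 genes were called and 3 of 9 had an unadjusted p under 0.05, beside 1.75% of all probes. That of S1pr5 was -0.54 with normexp, -0.76 without Fcgr2b-/- mouse 1 and -0.33 within slide 2. On slide 2, Ccl3 and Ccl4 were -2.79 and -1.20 in Fcgr2b-/- mouse 3. The double-deficient mice there ran from -3.77 to -2.66 for Ccl3 and from -2.26 to -0.44 for Ccl4, around those values.

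**Figure D3:**
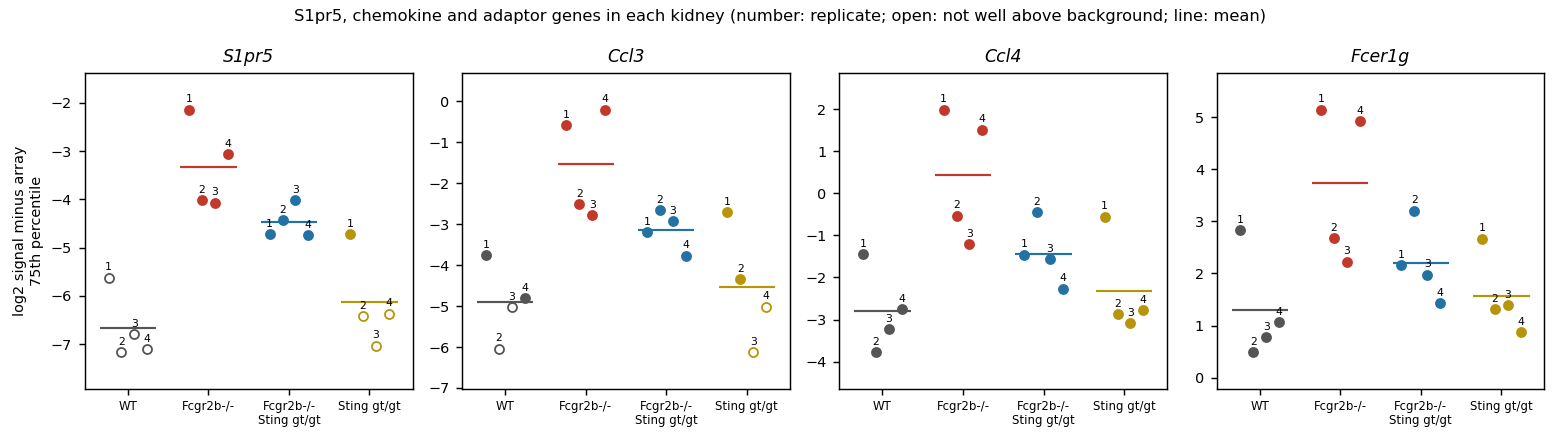
Log2 signal minus the 75th percentile of the array for S1pr5, Ccl3, Ccl4 and Fcer1g in each of 16 kidneys by genotype, with replicate numbers, open points for values not well above background and lines for means. S1pr5 is not well above background in the 4 WT kidneys and is between -4.07 and -2.14 in the 4 Fcgr2b-/- kidneys.

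Of the transcription factors of these cells 7 were tested, 0 were called and the median difference was 0.49, or 0.27 with normexp and 0.32 with scaling by the array median. Tbx21, which encodes T-bet, differed by 0.88 (-0.46 to 2.23), Prdm1 by 0.97 and Zeb2 by 0.71, and 1 gene was below the filter. For Tbx21, Prdm1 and Zeb2, Fcgr2b-/- mouse 1 carried much of the difference, at -1.77, -0.88 and 2.86. The other Fcgr2b-/- mice reached at most -2.98, -2.83 and 1.28. Of 10 tested activating cytokine and receptor genes 0 were called, with a median of 0.53, or 0.27 with normexp. Il21r differed by 1.53 (0.23 to 2.83), Il2rg by 1.39 (0.40 to 2.37) and Il2rb by 1.22 (-0.69 to 3.13). Of 13 tested genes of the interferon-γ receptor and response 0 were called, 12 of 13 were positive and the median was 0.60. Cxcl10 differed by 1.09, Ciita, the master regulator of class II antigen presentation genes, by 1.04 and Stat4 by 0.93. All 3 intervals crossed 0. Cxcl10 was 2.33 and 2.57 in Fcgr2b-/- mice 1 and 4, and 0.59 and -0.07 in mice 2 and 3. Ciita and Stat4 were 2.44 and -1.26 in Fcgr2b-/- mouse 1, and at most 1.40 and -2.98 in the other Fcgr2b-/- mice. Stat4, detected in 2 of 4 WT and 2 of 4 Fcgr2b-/- kidneys, differed by 0.66 with both raised as for Gzmb.

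Several lists of other cells, though not all, moved with the members over the 16 kidneys, with correlations of 0.90 for T cell, 0.89 for macrophage and monocyte, 0.80 for neutrophil, 0.71 for B and plasma cell, 0.81 for mast cell, 0.59 for lymph node and 0.57 for fat genes, against 0.12 for red cell genes. For plasmacytoid dendritic cell genes it was 0.13 over all kidneys but 0.41 on slide 1 and 0.50 on slide 2, and for fat genes it was 0.71 on slide 1 and -0.21 on slide 2. Of 14 tested T cell genes 0 were called, 13 were positive, and the correlation of the list mean was 0.93 on slide 1 and 0.76 on slide 2. The T cell mean was 0.34 in Fcgr2b-/- mouse 1, -0.72 in Fcgr2b-/- mouse 4, -1.42 in WT mouse 1, -1.44 in Fcgr2b-/- Sting gt/gt mouse 2 and -1.05 in Sting gt/gt mouse 1, and -3.03 to -2.02 elsewhere. Cd4 was the brightest gene of the list by mean log2 signal. The summed signal of the list was 4.60 in Fcgr2b-/- mouse 1 and 3.84 in Fcgr2b-/- mouse 4 on the log2 scale. WT mouse 1, at 3.18, lay below Sting gt/gt mouse 1, Fcgr2b-/- Sting gt/gt mouse 2 (3.43), Fcgr2b-/- mouse 2 (3.31) and WT mouse 3 (3.22) by summed signal, and no list gene but Trat1 was below the filter. Il7r, Cd5 and Cd2 differed by 1.56, 1.45 and 1.30. Fcgr2b-/- mouse 1 carried much of this, at 1.22, 0.13 and 0.05. Mouse 4 had -1.44, -0.79 and -0.35, and mice 2 and 3 lay between -4.92 and -2.77. The macrophage and monocyte mean of 6 genes was 4.05 in Fcgr2b-/- mouse 1, 3.56 in Fcgr2b-/- mouse 4, 3.05 in Fcgr2b-/- Sting gt/gt mouse 2, 2.95 in WT mouse 1 and 2.80 in Sting gt/gt mouse 1, and 1.45 to 2.34 elsewhere. The summed signal of this list was highest in Fcgr2b-/- Sting gt/gt mouse 2 at 8.27 and lowest in Fcgr2b-/- Sting gt/gt mouse 3 at 6.83. Ly6c2 was its brightest gene by mean log2 signal. Of these 6 genes 0 were called, 4 were positive (5 with quantile normalization and in the table of the authors) and the median was 0.996. Adgre1, Cd68 and Ccr2 differed by 2.57, 2.32 and 1.16 between Fcgr2b-/- and WT, Cd68 with a limma adjusted p of 0.229. Of 7 tested B and plasma cell genes 0 were called, 4 were positive with a median of 0.23, or 0.06 to 0.09 with the other scalings, and Cd79b, Sdc1 and Jchain differed by 1.24, 0.66 and -0.59. Jchain was 3.54 in WT mouse 1 and -2.16 to 0.09 in the other WT mice. It was -2.53 in Fcgr2b-/- mouse 3 and -0.82 to 1.02 in the other Fcgr2b-/- mice, so its sign rests on single mice. Cd79b was 1.61 in Fcgr2b-/- mouse 1 and -1.41 to 0.51 in the other Fcgr2b-/- mice. Of 4 tested neutrophil genes 0 were called, 4 were positive with a median of 1.22, or 0.79 with normexp, and S100a8, S100a9 and Camp differed by 1.48, 1.36 and 1.07. S100a8 and S100a9 were 2.42 and 4.13 in Fcgr2b-/- mouse 1, and at most 0.63 and 1.99 in the other Fcgr2b-/- mice. The part of these cell types in the members' values was not tested. For Fcgr2b-/- Sting gt/gt minus Fcgr2b-/- the list medians were -0.96 for T cell, -0.90 for macrophage and monocyte, -0.67 for neutrophil and 0.06 for B and plasma cell genes, the last -0.0024 with normexp. Without Fcgr2b-/- mouse 1 these were -0.30, -0.44, -0.15 and 0.21.

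List medians of Fcgr2b-/- minus WT depended on single mice. Single genes of the lists, other than S1pr5, were not recomputed with mice left out, so values per mouse are given for some of them. Without Fcgr2b-/- mouse 1 they were 0.09 for granule exocytosis and death ligand, 1.04 for receptor adaptor, 1.51 for effector chemokine and homing, 0.23 for transcription factor, 0.15 for interferon-γ receptor and response, 0.34 for T cell, 0.53 for macrophage and monocyte and 0.59 for neutrophil genes, in each the lowest of the 8 mice left out in turn. At the highest they were 0.86, 2.30, 2.76, 0.74, 0.90, 1.49, 1.38 and 1.75 in the same order. The median of the activating cytokine and receptor genes ran from 0.33 without WT mouse 4 to 0.92 without Fcgr2b-/- mouse 2, and that of the B and plasma cell genes from -0.04 to 0.62. For fat genes it ran from -1.81 without Fcgr2b-/- mouse 1 to 0.64 without WT mouse 1, for mast cell genes from 0.03 to 0.79 without the same mice, and for kidney genes from -0.22 without Fcgr2b-/- mouse 2 to 0.38 without Fcgr2b-/- mouse 1. Plasmacytoid dendritic cell genes gave -0.17 to 0.14, lymph node genes 0.24 to 0.57 and red cell genes -0.31 to -0.09.

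Fat markers were high in 3 of the 5 high kidneys. The mean of Adipoq, Plin1 and Cidec was 1.46 in WT mouse 1, 0.80 in Fcgr2b-/- mouse 1 and -0.19 in Sting gt/gt mouse 1, against -4.58 to -1.32 in the other 13. It was -4.06 in Fcgr2b-/- mouse 4 and -4.58 in Fcgr2b-/- Sting gt/gt mouse 2, which were high for the members without it. Without the 3 fat-high arrays, a setting chosen after the data were seen, the Fcgr2b-/- minus WT difference was 0.95 for Gzma, 0.98 for Gzmb, 0.77 for Nkg7, 0.66 for Klrk1, 1.23 for Klrb1c and 1.08 for Ifng, and 0 of these were called. For Fcgr2b-/- Sting gt/gt minus Fcgr2b-/- it was -0.06 for Gzma, -0.36 for Nkg7, -0.24 for Klrk1 and 0.01 for Ifng, the same as without Fcgr2b-/- mouse 1, the only one of the 3 in that comparison.

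All 7 kidney markers were tested, and their mean lay between 3.56 and 4.63, lowest in Fcgr2b-/- Sting gt/gt mouse 2 at 3.56, WT mouse 1 at 3.57 and Fcgr2b-/- mouse 1 at 3.67. Slc34a1, the phosphate transporter of the proximal tubule, was 4.84 in Fcgr2b-/- mouse 1 and 7.62 at its highest. Umod was the brightest gene of the kidney list by mean log2 signal. The median Fcgr2b-/- minus WT difference of the list was 0.05, or -0.12 with scaling by the array median and 0.15 with quantile normalization. The correlation of the kidney list with the mean of the members was -0.62. For Fcgr2b-/- minus WT, Nphs1 and Slc34a1 differed by 0.97 and -0.50. Slc34a1 was 6.41 to 7.52 in the other Fcgr2b-/- mice and 6.31 to 7.56 in WT, so its sign rests on Fcgr2b-/- mouse 1. Nphs1 was 0.68 in that mouse and -1.12 to -0.42 in the other Fcgr2b-/- mice. Of the smaller lists 0 genes were called. The signs of the Cox6a2 and Tcf4 differences below rest on Fcgr2b-/- mouse 1. Cox6a2 was -2.66 in that mouse, -1.18 to 1.12 in the other Fcgr2b-/- mice and -0.60 to -0.20 in WT. Tcf4 was 3.42, 0.89 to 2.15 and 1.01 to 2.80 in the same order. Median differences were 0.43 for 2 mast cell genes, or 0.10 to 0.26 with the other scalings (Cma1 0.75, detected in 4 kidneys, -0.31 with WT raised and 0.31 with both raised, and Tpsb2 0.11), -0.03 for 4 plasmacytoid dendritic cell genes, or 0.02 with normexp and -0.20 with scaling by the array median (Cox6a2 -0.45, Tcf4 0.22, Ccr9 -0.21), 0.36 for 4 lymph node genes, or 0.19 with scaling by the array median (Ccl21a 0.85, Ccl19 0.76, Cr2 -0.12), -0.25 for 3 red cell genes, or -0.09 with quantile normalization and -0.42 with scaling by the array median (Hbb-bt -0.48, Hba-a1 -0.25, Alas2 -0.16) and -0.50 for the 3 fat genes (Plin1 -0.81, detected in 8 kidneys, -0.22 with the dimmer genotype raised and -0.49 with both raised, Cidec -0.50, Adipoq -0.37).

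**Figure D4:**
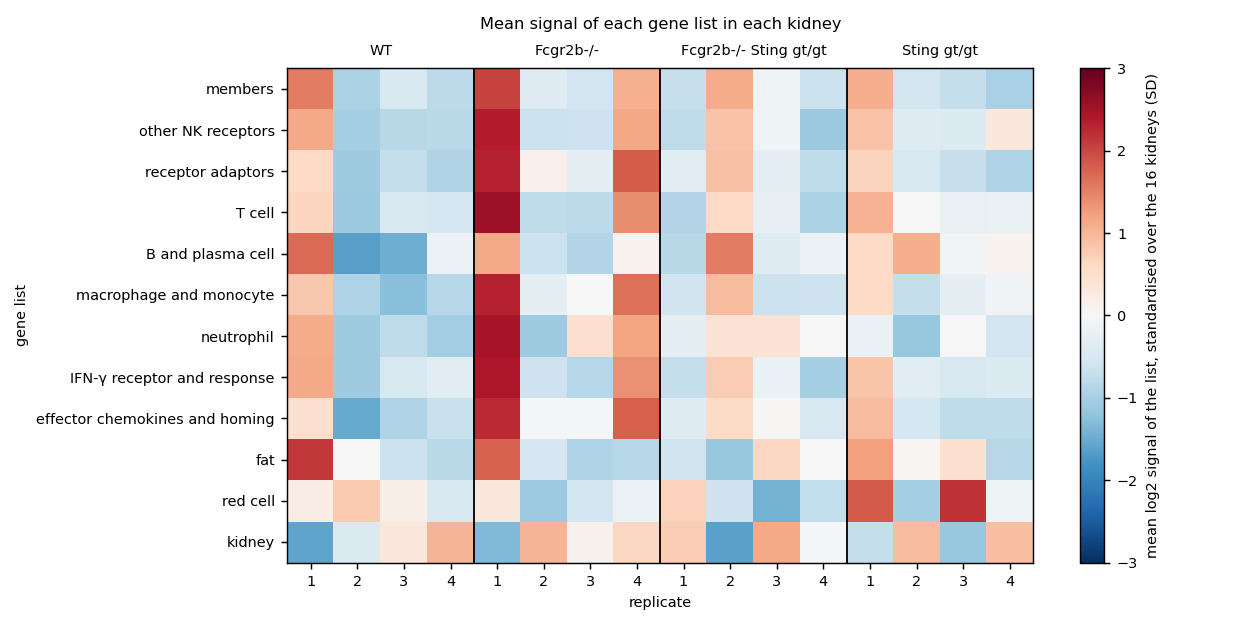
Mean log2 signal of each gene list (vertical axis) in each of the 16 kidneys (horizontal axis, replicate number within genotype), standardised over the 16 kidneys and coloured in SD. WT mouse 1, Fcgr2b-/- mice 1 and 4, Fcgr2b-/- Sting gt/gt mouse 2 and Sting gt/gt mouse 1 are high for the members and for T cell and macrophage genes.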

How the data were processed

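RNA (100 ng per kidney) was hybridised to one-colour arrays and read with Agilent Feature Extraction 11.0, named in the submitters' processing notes. Per the file headers, the deposited intensity columns are background-subtracted processed signals, and median spot and background signals. A further deposited table is in log2 units, with array medians of 5.54, 4.93, 5.14 and 5.38 for replicate numbers 1 to 4, equal within each number; how it was normalised was not found.

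Control and outlier spots were left out, log2 processed signals of a probe were averaged, and the 75th percentile of each array was subtracted. That percentile was first taken over probes and then over all non-control spots, a change made after results had been seen and array percentiles compared with an earlier description of these data; the wording chosen at the start allows both, and the calls for Fcgr2b-/- minus WT were 18 over probes and 16 over spots, and 0 members were called either way. Median spot signals with normexp (offset 50) were an alternative.

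Probes were named through RefSeq transcripts (GRCm38.p6), which matched 58.3% of 56605 probes; the array design uses another build, so no probe coordinates are printed. limma 3.58.1 in R 4.3.3 was fitted to all 16 arrays with 1 mean per genotype, after it had been tested on simulated data. Tables used Python 3.11.15 with pandas 2.3.3. A gene was read by its brightest probe. Named genes were all members, up to 3 genes per list with the largest difference of Fcgr2b-/- minus WT, and the 10 genes most like the members; 1 gene of the kidney list, counted in its means, is not reported here. Members and lists were chosen with earlier results of these data known. The number of arrays limits the precision. Settings tried were normexp, quantile, median scaling, the table of the authors, other filters, only the groups compared, the Mann-Whitney test of the study, eBayes with trend, slide and replicate blocks, each mouse left out and, chosen after the data were seen, the probe percentile, within-slide values and leaving out 3 fat-high arrays. S1pr5 under the same settings, list medians under each scaling, counts and medians over the members under each setting, list medians with single mice left out, and values raised to the dimmest detected probe, were also added after the data were seen.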

Additional observations from a re-analysis of the deposited data

Results flagged for a closer look

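One value stood far from its group. For Klrk1, Sting gt/gt mouse 1 had -2.13 while the other 3 mice had -4.12 to -3.85, and its gap to the nearest was 0.865 of the group range, above Dixon's 95% critical value for 4 samples. It was 1 of 28 groups looked at, and chance flags about 1 group in 20. The same mouse was high for T cell, macrophage and fat markers. The cause was not tested.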

How the results depend on the processing

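The differences of 7 members in 2 comparisons were recomputed 442 times in all under the alternatives. None passed the threshold. In 202 the value could not move, since the setting changed only the test, the filter or mice of other genotypes; of the 240 that moved, 221 kept their sign and 19 did not. Sign changes were small for Prf1 (0.041 within slide 1 for Fcgr2b-/- minus WT; -0.0062 within slide 1, and -0.093 to 0.18 with single mice left out, for Fcgr2b-/- Sting gt/gt minus Fcgr2b-/-). Klrb1c in Fcgr2b-/- minus WT became -0.00052 with normexp, -0.88 within slide 1 and ranged from -0.033 to 1.51 with single mice left out; for Fcgr2b-/- Sting gt/gt minus Fcgr2b-/- it ranged from -0.95 to 0.54. Ifng in the latter ranged from -1.39 to 0.0064, the highest without Fcgr2b-/- mouse 1, and was 0.0064 without the 3 fat-high arrays. Within slide 2, Fcgr2b-/- minus WT was -0.44 for Nkg7 and -0.085 for Klrk1, and Fcgr2b-/- Sting gt/gt minus Fcgr2b-/- was 0.41 for Gzma, 0.49 for Gzmb, 0.78 for Nkg7, 0.49 for Klrk1, 0.56 for Klrb1c and 0.68 for Ifng. The cause was not tested.

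The 16 probes called for Fcgr2b-/- minus WT became 3 with normexp, 7 in the table of the authors, 0 with probes detected on all arrays, 0 with only the groups compared, 9 without the 3 fat-high arrays, 144 by the unadjusted Mann-Whitney test with 2-fold and 0 after its adjustment, which 4 against 4 mice cannot pass unless very many probes separate. Leaving out single mice gave 0 to 39, with 0 without WT mice 2, 3 or 4 or Fcgr2b-/- mouse 4, 3 without Fcgr2b-/- mouse 1, 39 without Fcgr2b-/- mouse 2, 5 to 6 without any Fcgr2b-/- Sting gt/gt mouse, 5 without Sting gt/gt mouse 2 and 8 without Sting gt/gt mouse 4. The 0 calls for Fcgr2b-/- Sting gt/gt minus WT became 1 with normexp, 1 with probes detected on all arrays, 3 with only the groups compared, 2 without the 3 fat-high arrays and 58 by the unadjusted Mann-Whitney test, and ranged from 0 to 1 with single mice left out. The 0 calls for Fcgr2b-/- Sting gt/gt minus Sting gt/gt became 2 with only the groups compared, 2 without the 3 fat-high arrays and 169 by the unadjusted Mann-Whitney test, and ranged from 0 to 1 with single mice left out. That test gave 38 for Fcgr2b-/- Sting gt/gt minus Fcgr2b-/- and 117 for Sting gt/gt minus WT. The interaction had 0 under all settings run. Scaling by the median moved the median Fcgr2b-/- minus WT difference of all probes from -0.04 to -0.21.

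Equal replicate numbers mark no shared animal or litter in the labels. For WT and Fcgr2b-/- the deviations of mice with equal numbers correlated at 0.69, 0.60, -0.07 and 0.49, and 3 of 4 WT mice correlated best with their own number. For Fcgr2b-/- and Sting gt/gt 3 of 4 did as well, with correlations up to 0.445, and over the 6 pairs of genotypes the values ran from -0.60 to 0.69, so the numbers went together in some pairs of genotypes and not in others. All 4 arrays of number 1 lay on slide 1 and all 4 of number 3 on slide 2, and the deposited table has 1 median per number, so the numbers are not independent of slide or of how that table was made. Gzma and Gzmb were higher in Fcgr2b-/- than in WT at each of the 4 numbers, and with the block both had an adjusted p of 1. With a replicate block, 15 probes were called for Fcgr2b-/- minus WT and 0 in each other comparison, and no member was called. Signal over background limits Gzmk and Ncr1, detected on 2 arrays each.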
